A study of Mus musculus with 4 samples.

Results

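This account compares PMCA4-/- (KO) with wild-type (WT) mouse cardiac fibroblasts, and its members are all 4 arrays of the series: 2 KO arrays and 2 WT arrays. In each genotype 1 array carried RNA of fibroblasts given 30 µM phenylephrine for 72 h and 1 carried RNA of untreated fibroblasts. The KO mice carry a germline deletion in the PMCA4 gene Atp2b4 that removes its start codon, with exon 2 and a stretch of exon 3. The paper names WT littermates as controls in its mouse experiments on hypertrophy. Its methods do not say whether the WT fibroblasts came from littermates. All cells came from male mice 3 months old and were cultured for 4 days, and RNA of 3 batches of fibroblasts was pooled. The methods also describe 3 separate pools for each genotype, and how these relate to the 4 arrays is not stated, so whether the 2 arrays of a genotype carry the same cultures or different ones is unknown. The KO-minus-WT difference was taken on the log2 scale within the phenylephrine-treated pair and within the untreated pair, and the 2 differences were averaged. Wherever 2 values are given for a genotype below, the first is the untreated array and the second is the phenylephrine-treated array.

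PMCA4 is one of the calcium pumps of the plasma membrane, which use ATP to move calcium out of the cell. Cardiac fibroblasts lay down and remodel the collagen matrix of the heart, and on activation they become myofibroblasts, which carry contractile fibres of smooth muscle actin. They also release chemokines, growth factors and their binding proteins, through which they act on cardiomyocytes and immune cells. Phenylephrine is an agonist of α1-adrenergic receptors.

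The values are probe set intensities on a linear scale that the authors estimated with PUMA, a method that models the probes of each array. A second table of intensities, by Robust Multiarray Average (RMA), served as a check. Each of 20586 genes was read from its brightest probe set. A value was called bright when it exceeded the median over the probe sets of its array, which was 34.0 on all 4 arrays, and dim when it did not. On this basis 10673 genes were bright in both genotypes, 323 were bright only in KO, 361 were bright only in WT, 765 were bright on some arrays of a genotype and dim on others, and 8464 were dim throughout. At the edge of the class bright in both, Hes1 at 129.9 and 119 in KO and 34.1 and 39.3 in WT lay just inside, and Ptgis at 951 and 948 in KO and 83.0 and 34.0 in WT lay just outside.

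Cells of both genotypes carried fibroblast transcripts: 13 of 14 fibroblast markers were bright on every array, Tcf21 being the exception. Of 11 cardiomyocyte markers read, none was bright in KO and 1, Tnni3, was bright in WT at 37.9 and 40.2. Macrophage markers were bright for 6 of 15 genes on every array. Their summed intensity was 2510 and 2823 in KO and 1682 and 1890 in WT, while Ptprc and Itgam, which define leukocytes and macrophages, were dim on all 4 arrays. Of 10 endothelial markers, 2 were bright in KO and 1 in WT, and Pecam1 and Cdh5 were dim on all arrays. The Y-linked genes Ddx3y, Eif2s3y, Kdm5d and Uty were bright and Xist was dim on all 4 arrays, as the label male requires. In bulk RNA, more cells of a type and more RNA per cell cannot be told apart. Atp2b4 itself was read by 1 probe set with 31.6 and 37.9 in KO and 19.6 and 23.3 in WT, and no source used here places that probe set within or outside the deletion, which it therefore cannot check.

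Differences between the genotypes were called over a large part of the genes tested. A limma model of genotype plus treatment called 2811 genes higher in KO, 24.6% of the 11424 genes tested, and 2935 lower, 25.7%. These 2 shares are the background against which every count of calls below is read. Genes were tested when their mean intensity over all 4 arrays passed a filter. A gene dim in 1 genotype could pass it only through the other genotype, so its call is largely fixed by its class. Of 200 tested genes bright only in KO 198 were called higher, and of 233 bright only in WT 228 were called lower. The counts and medians of the lists below include such genes. The share of all genes whose genotypes do not overlap was not counted. Statements below that KO and WT values do not overlap describe the named genes alone, which were chosen with their values seen. Among genes bright in both, the median absolute log2 difference between genotypes was 0.276 untreated and 0.278 with phenylephrine. The median absolute effect of phenylephrine was 0.0773 in KO and 0.0802 in WT. A lack of overlap therefore does not by itself set a gene apart. The fit has 1 residual degree of freedom, the spread of the genotype difference between the 2 treatments. Its error is that spread shrunk towards a value shared by all genes tested, with 2.956 prior degrees of freedom. It is not a measured spread between replicate cultures, and the standard errors below are such shrunken values. Without the filter on low intensities 0 genes passed after adjustment, with 5396 at an unadjusted p under 0.05 in limma. With a gene read as the median of its probe sets the counts were 1559 and 1573. Most calls were small: of 5157 genes bright in both that were called, 3213 differed by under 1.5-fold and 4474 by under 2-fold, with a median standard error of 0.0734 on the log2 scale. With a fold threshold in place of the test, 290 of the 10673 genes bright in both were at least 2-fold higher in KO in both treatments (2.72%) and 292 were at least 2-fold lower (2.74%). With brightness set at the 75th percentile of each array these counts were 92 and 88. At 4-fold these counts were 49 and 53, and at 8-fold 16 and 20.

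The 12 largest rises and 12 largest falls below were chosen among genes called by limma and at least 2-fold apart in both treatments. That their genotypes lie apart therefore follows largely from the choice. Among genes bright in both genotypes, the 12 largest rises were headed by Igf2. This imprinted gene, which encodes insulin-like growth factor 2, had intensities of 8526 and 8393 in KO and 171 and 117 in WT. It averaged 59.7-fold higher, a log2 difference of 5.90 ± 0.15 (SE, n = 2 arrays per genotype, limma adjusted p = 0.000293). Both KO arrays lay far above both WT arrays, and the gap exceeded the spread between treatments many times over. Plac8, a gene first described in placenta, stood at 5773 and 5371 in KO and 202 and 192 in WT. Arhgdib, which encodes an inhibitor of small GTPases typical of blood cells, stood at 2419 and 2814 in KO and 102 and 90.1 in WT. For both genes the genotypes did not overlap. Of the 6 macrophage markers tested, Csf1r, Cd53 and Cd14 were called higher in KO, and Lyz2, Adgre1 and Laptm5, at 0.12, -0.15 and -0.49 on the log2 scale, were not called. The part of such cells in the rise of Arhgdib was not tested. Efna5 encodes ephrin-A5, a membrane-bound guidance ligand, and had 1063 and 1127 in KO and 64.6 and 49.5 in WT. Srgn, the core protein of a proteoglycan of secretory granules, had 773 and 846 in KO and 47.9 and 47.3 in WT. Map1b, a microtubule-associated protein of neurons, had 834 and 921 in KO and 58.1 and 72.2 in WT. Dact1, which encodes a regulator of Dishevelled in Wnt signalling, averaged 10.5-fold higher, and Dmrt2, a transcription factor of the somites, 10.1-fold higher. Tmem178 had 1488 and 1434 in KO and 89.7 and 73.5 in WT, and the other 3 of the 12, Fam107a, Spats2l and Depdc7, were 9.85- to 14.1-fold higher. Adjusted p in limma ran from 0.000127 to 0.000468 over the 12 genes. With RMA values the 12 rises were 7.06- to 23.6-fold.

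The 12 largest falls among genes bright in both were headed by the monocyte chemoattractant Ccl2. It had intensities of 110.3 and 85.7 in KO and 8463 and 8857 in WT, and averaged 89.1-fold lower with a log2 difference of -6.48 ± 0.13 (SE, n = 2 arrays per genotype, limma adjusted p = 0.000215). Its neighbour Ccl7, which attracts monocytes through the same receptor, had 233 and 222 in KO and 3371 and 3673 in WT. In both genes every KO value lay below every WT value by over an order of magnitude. Gja1, which encodes connexin 43, the main gap junction protein of the ventricle, had 581 and 429.9 in KO and 8295 and 9068 in WT. Grem1, which encodes the BMP antagonist gremlin, had 50.1 and 49.7 in KO and 738 and 690.3 in WT. Gem, a small GTPase that inhibits voltage-gated calcium channels, had 53.2 and 59.9 in KO and 838 and 797 in WT. These 3 genes were bright in WT by a wide margin, and Grem1 and Gem lay only a little above the array median in KO. Scara5, a ferritin receptor, averaged 13.2-fold lower (log2 difference -1.01 and not called with the median over its probe sets) and Hspb1, a small heat shock protein, 10.6-fold lower. Tmeff2, Flrt2, Mageh1, Plxdc2 and Esm1 made up the 12 and were 13.8- to 35.9-fold lower. Mageh1, at 44.4 and 42.8, Esm1, at 49.4 and 42.6, and Tmeff2, at 51.7 and 53.9, also lay only a little above the array median in KO. Adjusted p in limma ran from 0.000115 to 0.000655. With RMA values the 12 falls were 9.02- to 36.4-fold.

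**Figure D1:**
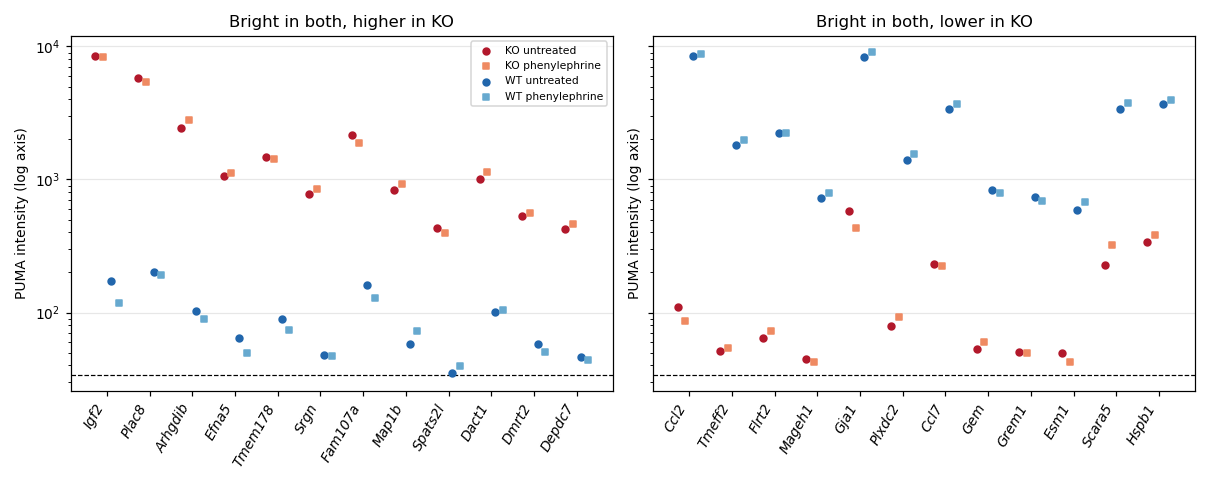
PUMA intensity (log axis) on each of the 4 arrays for the 12 largest rises (left) and the 12 largest falls (right) among genes bright in both genotypes; circles are untreated and squares phenylephrine-treated arrays, and the dashed line is the array median of 34.0. For all 24 genes the KO pair and the WT pair are apart, which largely follows from how the genes were chosen. Within a genotype the 2 treatments lie close together.

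Genes bright in 1 genotype and near background in the other are given with a lower bound, for which every value under its array median was raised to that median. PUMA can place a dim value far under 1, so the fitted log2 difference of such a gene has no fixed size and is not given. By the bound, 130 of the 323 genes bright only in KO were at least 2-fold higher in both treatments, and 150 of the 361 bright only in WT were at least 2-fold lower. With brightness read from RMA these counts were 61 and 83. The direction of these genes is fixed by the class. RMA, which spreads dim values less, gave the same sign for 100% of the genes bright only in KO and 98.6% of those bright only in WT.

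Of the 12 genes bright only in KO that are named here for their bounds, the highest was Rpl39l. Rpl39l, a paralogue of Rpl39 best known from testis, had 4837 and 4824 in KO and 0.0678 and 0.00672 in WT, at least 142-fold higher, and 6118 and 6229 in KO and 27.9 and 20.9 in WT with RMA. Rpl39 itself had 12832 and 11662 in KO and 9919 and 11414 in WT and was not called (limma adjusted p = 0.198). The paralogue was thus near background on both WT arrays and Rpl39 was bright on all 4. Vnn1, which encodes the pantetheinase vanin-1, had 2442 and 1968 in KO and 9.68 and 13.4 in WT, at least 57.8-fold higher. Sfrp2, which encodes a secreted Wnt-binding protein, had 1631 and 1390.5 in KO and 0.300 and 0.472 in WT, at least 40.9-fold higher, and 2226 and 1805 in KO and 19.7 and 14.7 in WT with RMA. Chil1, a chitinase-like gene on the chromosome of Atp2b4, had 1224 and 1199 in KO and 0.0435 and 0.270 in WT, at least 35.2-fold higher. All 3 were bright on both KO arrays and dim on both WT arrays. Vit encodes the matrix protein vitrin, and was at least 20.2-fold higher. Elovl7, a fatty acid elongase, was at least 16.2-fold higher, and Dtna, which encodes α-dystrobrevin of the dystrophin complex, at least 11.8-fold. Epb41l4a, Clip4, Mpp7, Clca1 and Prrg3 completed the 12, with bounds of 11.2- to 21.1-fold.

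Of the 12 genes bright only in WT that are named for their bounds, the highest was Ndn. Ndn, the imprinted gene of necdin, had 24.8 and 14.4 in KO and 3774 and 3986 in WT, at least 111-fold lower. Enpp2, which encodes autotaxin, the enzyme that makes lysophosphatidic acid, had 0.0654 and 1.09 in KO and 2105 and 2062 in WT. Ccl11, which encodes the eosinophil attractant eotaxin, had 2.50 and 2.90 in KO and 1922 and 2038 in WT. For these 3 genes both KO arrays were dim and both WT arrays lay far above their medians. Of the adhesion molecules, Icam1, a leukocyte ligand, had 5.63 and 18.8 in KO and 1438 and 1494 in WT, and Cadm2 and Nrcam, of the immunoglobulin superfamily, were at least 56.7- and 27.6-fold lower. Mmp13, a collagenase, had 6.21 and 2.21 in KO and 1063 and 773 in WT, at least 22.7-fold lower. Prkg1, the cGMP-dependent kinase, and Gnai1, an inhibitory G-protein subunit, were at least 20.6- and 16.3-fold lower. Vstm2a, Atp8b1 and Tent5a completed the 12, with bounds of 19.3- to 49.2-fold. In RMA, the KO intensities of these 12 genes were 7.63 to 89.4 and their WT intensities 632 to 4073.

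**Figure D2:**
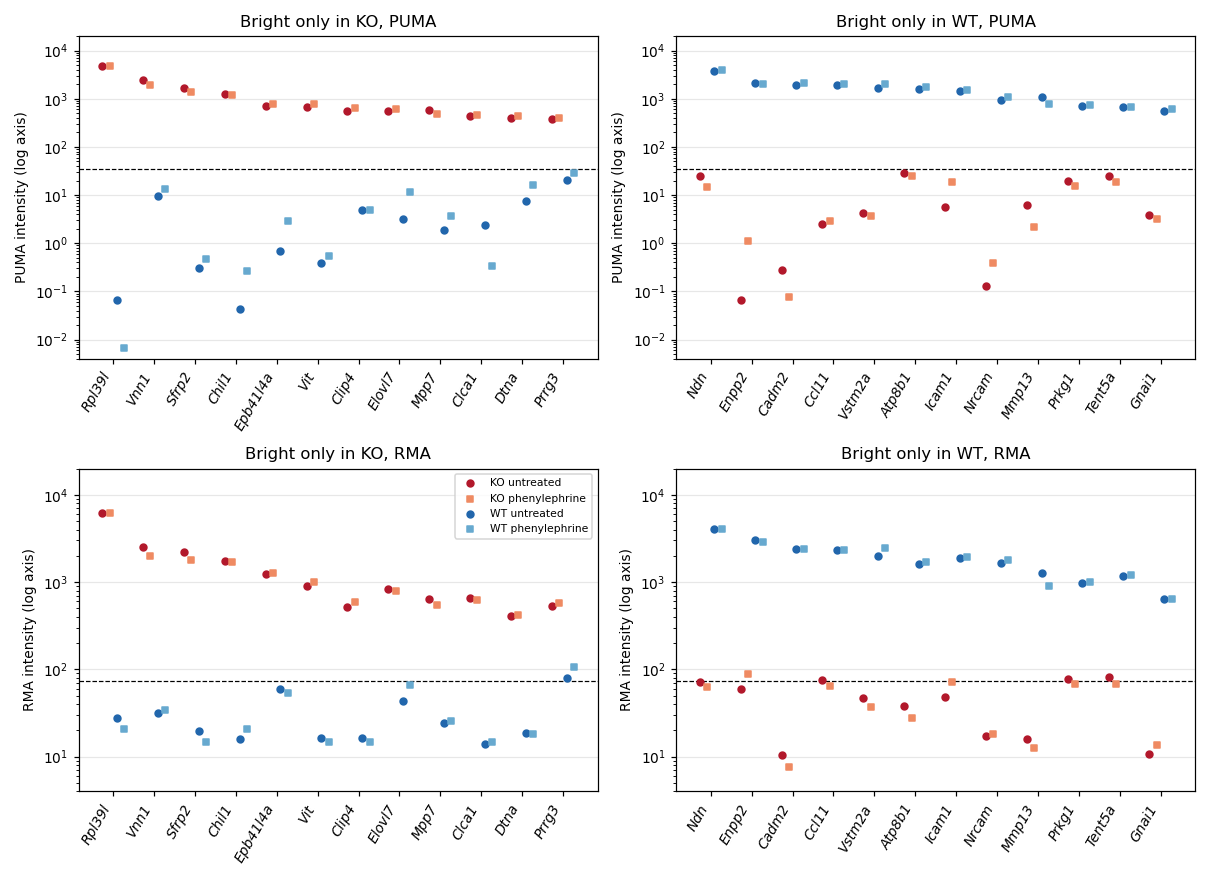
Intensity (log axis) on each of the 4 arrays for the 12 genes bright only in KO (left) and the 12 bright only in WT (right) with the highest lower bounds, by PUMA (top) and RMA (bottom); the dashed lines are the array medians. With PUMA the dim genotype reaches 0.00672, and with RMA it stays between 7.63 and 106 while the bright genotype keeps its level.

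Other probe sets of the named genes were also read. Of 74 further probe sets for 25 of these genes, 57 were bright on at least 1 array. By RMA in both treatments, 56 of the 57 had the sign of the probe set read, and 48 differed at least 2-fold in that direction. Of the 17 dim ones, 1 differed at least 2-fold in that direction. Most of these genes were chosen for wide differences, and a probe set could pass as bright through 1 genotype alone. The agreement in sign is therefore a description and no independent support.

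The contractile genes of myofibroblasts rose nearly as a block. Of 16 tested members 15 were called higher and 0 lower, with a median log2 difference of 0.84 against -0.0076 over all genes tested. Here and below, a single value given for a gene is its mean log2 difference, KO minus WT, and paired values are PUMA intensities. Acta2, smooth muscle α-actin, had 10268 and 10209 in KO and 2549 and 2512 in WT. Myl9, a regulatory myosin light chain, had 1674 and 1878 in KO and 524 and 622 in WT. Tagln, which encodes the actin-binding protein SM22, had 1436 and 1579 in KO and 726 and 747 in WT. Every KO value of these 3 genes lay above every WT value. The tropomyosin genes Tpm1, Tpm2 and Tpm4, which encode proteins that wrap actin filaments, differed by 0.55, 1.31 and 0.91. Vcl, which encodes vinculin of focal adhesions, differed by 0.69 and Flna, the actin crosslinker filamin A, by 0.82. Lmod1, which encodes leiomodin of smooth muscle, was bright only in KO at 189.6 and 210.0. Cald1, caldesmon, was the member that did not pass, at 8934 and 8670.4 in KO and 8559 and 9406 in WT. Of 9 markers of mature smooth muscle and pericytes 4 were tested, of which 1 was called higher and 2 lower. Smtn was higher, at 184 and 208 in KO and 143 and 107 in WT. Notch3 was lower, and so was Rgs5, at 30.3 and 34.4 in KO and 185 and 186 in WT. Cnn1, under the filter of the test, had 14.7 and 35.3 in KO and 0.983 and 0.695 in WT. Its RMA log2 differences were 1.03 and 1.65. Myh11 and Des were dim on all 4 arrays.

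RefSeq promoter sequences (GRCm38.p6, 250 bases before to 50 after the start of each gene) were available for 15 of the contractile genes, and a CArG box, the recognition motif of serum response factor, was found on either strand in 3 of them, Cnn2, Myl9 and Vcl (20.0%), against 1.81% of the promoters of 27025 genes. Those of Myl9 (chr2:156775214-156775513, plus strand) and Vcl (chr14:20929148-20929447, plus strand) are shown because both genes rose with the list, with the match in capitals.
Myl9: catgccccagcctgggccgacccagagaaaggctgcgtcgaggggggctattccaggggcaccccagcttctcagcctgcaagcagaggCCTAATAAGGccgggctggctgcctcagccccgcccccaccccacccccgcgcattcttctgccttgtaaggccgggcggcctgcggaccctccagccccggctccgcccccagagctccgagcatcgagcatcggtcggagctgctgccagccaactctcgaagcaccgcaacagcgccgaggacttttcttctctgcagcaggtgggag
Vcl: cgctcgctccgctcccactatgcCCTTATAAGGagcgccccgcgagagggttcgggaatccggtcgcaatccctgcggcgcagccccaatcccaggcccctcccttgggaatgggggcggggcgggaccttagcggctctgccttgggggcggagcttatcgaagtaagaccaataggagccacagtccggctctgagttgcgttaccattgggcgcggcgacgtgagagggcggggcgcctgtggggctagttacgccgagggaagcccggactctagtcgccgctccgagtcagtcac
A match is a description of the letters in this window and was not tested as a binding site. Here and below, lists were composed by the known role of their genes. The share of a list with a match therefore describes the list and does not bear on the genotype difference.

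Of 18 tested collagen genes 11 were higher and 2 lower (median 0.50). Col12a1, a collagen that decorates fibrils, had 7522 and 7259 in KO and 1596 and 1409 in WT. The fibrillar chains Col1a1 and Col3a1 differed by 0.82 and 0.62, while Col1a2, with 13364 and 12824 in KO and 12908 and 13586 in WT, was not called. Col14a1 was bright only in KO, at 424 and 199, against 6.02 and 4.28 in WT. The falls were those of Col5a3 and Col7a1, at -0.89 and -0.41. Of 12 tested integrins 8 were higher and 2 lower (median 0.54). Itga1, a collagen receptor subunit, had 443 and 434 in KO and 125 and 134 in WT, whereas Itga8, the subunit that binds nephronectin, had 89.3 and 63.4 in KO and 227 and 215 in WT. Among proteoglycans and matricellular proteins 14 rose and 8 fell of 29, with Spp1, osteopontin, at 1.39 and Fbn1, fibrillin-1 of microfibrils, at -1.73. Of 26 tested matrix proteases and inhibitors 8 were higher and 7 lower, near the background shares of 24.6% and 25.7%. In this list 4 genes, Mmp8, Mmp9, Mmp12 and Mmp13, were bright only in WT. Mmp3, stromelysin-1, was bright in both, at 4349.9 and 4530.1 in KO and 15789.8 and 16553 in WT.

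Ligands and antagonists of the TGF-β and BMP family moved in both directions, with 10 higher and 5 lower of 18. Tgfb3, one of the TGF-β isoforms, differed by 1.82 and Fstl3, which binds activins, by 1.94. Bmp4 was bright only in WT, at 0.811 and 0.608 in KO and 151 and 129.8 in WT. Of 14 tested Wnt ligands and secreted antagonists 9 were higher and 0 lower (median 0.41). In the IGF axis 8 of 14 rose and 4 fell. Pappa, a protease of IGF binding proteins, had 542 and 472 in KO and 123 and 136 in WT, and Igfbp3, which carries IGFs in blood, had 34.0 and 18.2 in KO and 4146 and 3960.2 in WT. Igfbp5 had 5871 and 3076 in KO and 2138 and 1658 in WT, and its phenylephrine-treated KO array lay closer to WT than its untreated KO array did. Igfbp4 differed by 0.39 ± 0.069 (SE, limma adjusted p = 0.0168) at its brightest probe set, the smallest difference of its 6. At the other 5, all bright on every array, it differed by 0.75, 0.90, 1.11 and 1.36 at 4, and at the last it had 475 and 594 in KO and 151 and 117 in WT, the widest of the 6.

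Imprinted genes, which are expressed from 1 parental allele, held several of the wide differences. Of 14 tested, 8 were higher and 3 lower in KO. H19, the non-coding RNA that shares a control region with Igf2, had 35.0 and 33.5 in KO and 390.3 and 421 in WT, the opposite direction to Igf2. Mest had 1020.0 and 903 in KO and 120.2 and 108 in WT, and Dlk1, which encodes a Notch-like inhibitor of fat cell formation, had 112 and 115 in KO and 40.1 and 48.6 in WT. Cdkn1c, which encodes the cell cycle inhibitor p57, was bright only in KO at 56.9 and 80.5, and Impact was lower at -1.61. The direction thus differed between members.

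Replication and mitosis genes were higher. Of 21 tested members 14 were called higher and 0 lower (median 0.74). Mki67, which encodes the proliferation marker Ki-67, had 125 and 143 in KO and 39.0 and 45.7 in WT. Top2a, topoisomerase IIα, had 253 and 234 in KO and 141 and 139 in WT, and Ccnb1, cyclin B1, had 142 and 133 in KO and 55.4 and 53.3 in WT. All 3 separated the genotypes without overlap. Of the list, 5 genes were bright only in KO, among them Kif11, a motor of the mitotic spindle, and Birc5, survivin. Such genes pass the filter through KO alone, so their calls are largely fixed by their class. Restricted to genes whose mean intensity exceeded the 75th percentile, the list's median was -0.0026. Ccnd1, cyclin D1 of the G1 phase, was higher at 1.15, and its partner kinase Cdk6 was lower at -1.12.

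Interferon-response genes rose without a fall among them. Of 23 tested members 16 were higher and 0 lower (median 0.49). In this list 3 genes were bright only in KO, a class whose calls are largely fixed by the filter. Ifit1, an RNA-binding antiviral protein, had 827 and 621 in KO and 128 and 177 in WT. Oasl2, of the oligoadenylate synthetase family, had 263 and 202 in KO and 51.6 and 55.6 in WT. Ifi44 was bright only in KO, at 197 and 173 against 33.6 and 28.8 in WT, and the transcription factor gene Irf7 likewise, at 80.7 and 67.1 against 19.1 and 13.6. In all 4 genes both KO values lay above both WT values, and in Ifit1 and Oasl2 the phenylephrine-treated arrays lay closer together than the untreated ones. Of the factors that transmit the interferon signal, Stat2 and Irf9 differed by 0.34 and 0.89. Members that were not called included Ifit2, at 706 and 758 in KO and 708 and 856 in WT, Irf1, Ddx58 and Ifih1. Oas1a belongs to a family of near-identical copies, so its value of at least 2.29-fold cannot be assigned to 1 of them with certainty. Of 7 tested genes of MHC class I antigen presentation 4 rose and 0 fell, with Nlrc5, the transactivator of the class, at 1.36. With the median over its probe sets Tap1, called higher in both lists, differed by -0.23.

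In the RefSeq promoters the letters GAAA, any 2 bases and GAAA again, the core of the interferon-stimulated response element, occurred on either strand in 11 of the 20 interferon-response genes that have an entry (55.0%), against 3.99% of the promoters of 27025 genes. Of the 13 entries whose gene was called higher 7 held the letters. The promoters of Ifit1 (chr19:34640639-34640938, plus strand), Ifit3 (chr19:34583279-34583578, plus strand) and Bst2 (chr8:71537423-71537722, minus strand) are shown, since these 3 genes rose and each holds 2 matches. Capitals mark the matches, which in Ifit1 and Ifit3 read from the opposite strand and in Bst2 overlap.
Ifit1: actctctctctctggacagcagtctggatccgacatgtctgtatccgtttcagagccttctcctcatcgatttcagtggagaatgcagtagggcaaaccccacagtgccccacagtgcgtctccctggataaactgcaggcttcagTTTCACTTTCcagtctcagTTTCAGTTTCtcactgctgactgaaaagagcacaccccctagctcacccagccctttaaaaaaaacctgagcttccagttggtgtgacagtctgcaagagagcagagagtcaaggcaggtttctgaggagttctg
Ifit3: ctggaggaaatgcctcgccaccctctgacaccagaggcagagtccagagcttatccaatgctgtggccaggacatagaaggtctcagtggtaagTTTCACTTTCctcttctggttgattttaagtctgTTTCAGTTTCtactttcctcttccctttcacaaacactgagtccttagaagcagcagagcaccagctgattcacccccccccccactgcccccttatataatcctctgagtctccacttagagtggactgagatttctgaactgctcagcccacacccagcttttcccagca
Bst2: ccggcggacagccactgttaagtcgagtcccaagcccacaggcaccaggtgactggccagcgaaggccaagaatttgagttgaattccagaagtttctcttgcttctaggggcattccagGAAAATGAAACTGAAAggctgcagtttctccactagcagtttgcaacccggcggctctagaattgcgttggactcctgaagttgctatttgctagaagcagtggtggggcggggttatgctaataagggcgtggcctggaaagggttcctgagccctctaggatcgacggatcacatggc
Ifih1, Ddx58, Gbp2 and Gbp3, whose promoters hold the letters as well, were not called.

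Chemokines were mostly lower. Of 14 tested members 9 were called lower and 2 higher (median -1.13). Besides Ccl2, Ccl7 and Ccl11, Cxcl16, a membrane-bound chemokine and scavenger receptor, had 149.9 and 181 in KO and 596 and 546 in WT. Ccl8 had 824 and 973 in KO and 2492 and 2602 in WT, and Ccl9 had 136 and 201 in KO and 505 and 516 in WT. Neither overlapped between genotypes. The neutrophil attractant Cxcl1 was lower at 4079.5 and 3995 in KO and 6736 and 6951 in WT, and Cxcl2 was bright only in WT, at 3.08 and 9.90 in KO and 119 and 109.6 in WT. The 2 rises were those of Cx3cl1, fractalkine, at 1236 and 1219 in KO and 651 and 614 in WT, and of the interferon-induced Cxcl10, bright only in KO at 60.2 and 58.9. Of the 9 members that fell, 7 lie on chromosome 11, where genes as a whole were lower in KO. When chromosome medians were taken off, an alternative added once the values were known, the list's median was -0.92. In the list of the IL-6 and IL-1 families and their receptors 8 of 16 rose and 3 fell. Il6 had 941 and 1135 in KO and 419 and 544 in WT, and Il1rl1, the IL-33 receptor, had 5317 and 6889 in KO and 2014 and 2164 in WT.

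Of 14 tested subunits and regulators of NF-κB, the transcription factor that drives many chemokine genes, 1 was higher and 6 were lower (median -0.15). Nfkbie and Tnfaip3, both inhibitors of the pathway and known as its targets, differed by -1.22 and -1.11, and Relb by -0.69. Nfkbib, also called lower, differed by 0.068 with the median over its probe sets. The subunit gene Nfkb1 had 1055 and 1079.6 in KO and 916 and 893 in WT, and neither it nor Rela was called. The rise was that of Ikbkb, a kinase of the pathway, at 0.26. Ikbkb lies on chromosome 8, where genes as a whole were higher in KO, and with the chromosome median taken off its difference was -0.074. An NF-κB site, searched on either strand, was present in 4 of the 7 chemokine promoters with a RefSeq entry (57.1%), against 6.55% of the promoters of 27025 genes. Those of Cxcl1 (chr5:90890995-90891294, plus strand) and Cxcl2 (chr5:90903649-90903948, plus strand), which fell, are shown with the match in capitals.
Cxcl1: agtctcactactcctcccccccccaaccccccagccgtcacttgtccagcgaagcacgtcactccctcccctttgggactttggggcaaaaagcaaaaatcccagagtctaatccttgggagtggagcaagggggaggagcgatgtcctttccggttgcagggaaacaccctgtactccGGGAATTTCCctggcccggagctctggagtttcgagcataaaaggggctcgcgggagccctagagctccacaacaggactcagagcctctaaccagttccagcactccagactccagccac
Cxcl2: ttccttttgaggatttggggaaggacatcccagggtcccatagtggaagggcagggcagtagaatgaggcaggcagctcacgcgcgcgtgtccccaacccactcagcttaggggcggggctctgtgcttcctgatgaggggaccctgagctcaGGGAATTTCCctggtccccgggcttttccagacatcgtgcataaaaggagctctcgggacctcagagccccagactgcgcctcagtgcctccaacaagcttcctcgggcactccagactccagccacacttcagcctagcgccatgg
The promoters of Ccl9, which fell, and Cxcl10, which rose, held the site too.

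Genes of cholesterol and fatty acid synthesis fell nearly as a block. Of 26 tested members 21 were lower and 1 higher (median -0.74). Hmgcs1, HMG-CoA synthase, had 1753 and 1687 in KO and 2977 and 3004 in WT. Idi1, isopentenyl diphosphate isomerase, had 484 and 472 in KO and 1042 and 1068 in WT. No KO value reached a WT value in either gene. Insig1, a sterol-regulated retention factor of the pathway's regulators, differed by -0.97. Fasn, fatty acid synthase, differed by -0.96 and Scd1, a fatty acid desaturase, by -1.22, while its paralogue Scd2 was the member that rose, at 0.45. The median was -0.67 with RMA values and -0.69 with the chromosome median subtracted.

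The letters TCACNCCA, a form of the sterol regulatory element, were found on either strand in 3 of the 18 promoters of the list with a RefSeq entry, Hmgcs1, Msmo1 and Srebf2 (16.7%), against 4.97% of the promoters of 27025 genes. Those of Hmgcs1 (chr13:119690101-119690400, plus strand) and Msmo1 (chr8:64733529-64733828, minus strand), both lower in KO, are shown with the match in capitals.
Hmgcs1: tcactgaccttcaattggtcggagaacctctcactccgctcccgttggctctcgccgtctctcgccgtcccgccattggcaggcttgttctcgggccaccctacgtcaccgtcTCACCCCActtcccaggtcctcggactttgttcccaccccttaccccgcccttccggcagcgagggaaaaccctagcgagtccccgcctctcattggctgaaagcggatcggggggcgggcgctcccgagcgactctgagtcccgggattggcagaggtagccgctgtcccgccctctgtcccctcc
Msmo1: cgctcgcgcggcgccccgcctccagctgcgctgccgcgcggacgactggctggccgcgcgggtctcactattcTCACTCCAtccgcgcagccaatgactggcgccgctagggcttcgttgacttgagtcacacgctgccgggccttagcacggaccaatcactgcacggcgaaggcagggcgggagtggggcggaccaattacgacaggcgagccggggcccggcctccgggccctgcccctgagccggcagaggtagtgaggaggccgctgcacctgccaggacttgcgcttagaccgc
Srebf2 was not called.

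Glycolytic and hypoxia-responsive genes had 8 falls and 0 rises among 23 (median -0.24). Car9 and Egln3, targets of hypoxia-inducible factor, were bright only in WT. Car9 had 24.3 and 21.8 in KO and 118 and 102 in WT, and Egln3 had 22.4 and 8.47 in KO and 130.0 and 108 in WT. Adm, adrenomedullin, differed by -0.65 and Vegfa by -0.31, whereas most glycolytic enzymes, Aldoa, Pgk1 and Ldha among them, were not called. Oxidative phosphorylation genes were called higher in 5 and lower in 6 of 28 (median 0.017), and cytosolic ribosomal protein genes higher in 3 and lower in 0 of 32 (median 0.072), Rpl39l among the 3, all under the background shares. Of 22 NRF2 targets and metallothioneins 6 were higher and 7 lower, near the background shares. Gclc, a glutathione synthesis enzyme, and Gsta4 were lower at -1.32 and -1.39, and Gstm1, a glutathione transferase, was higher at 0.70.

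**Figure D3:**
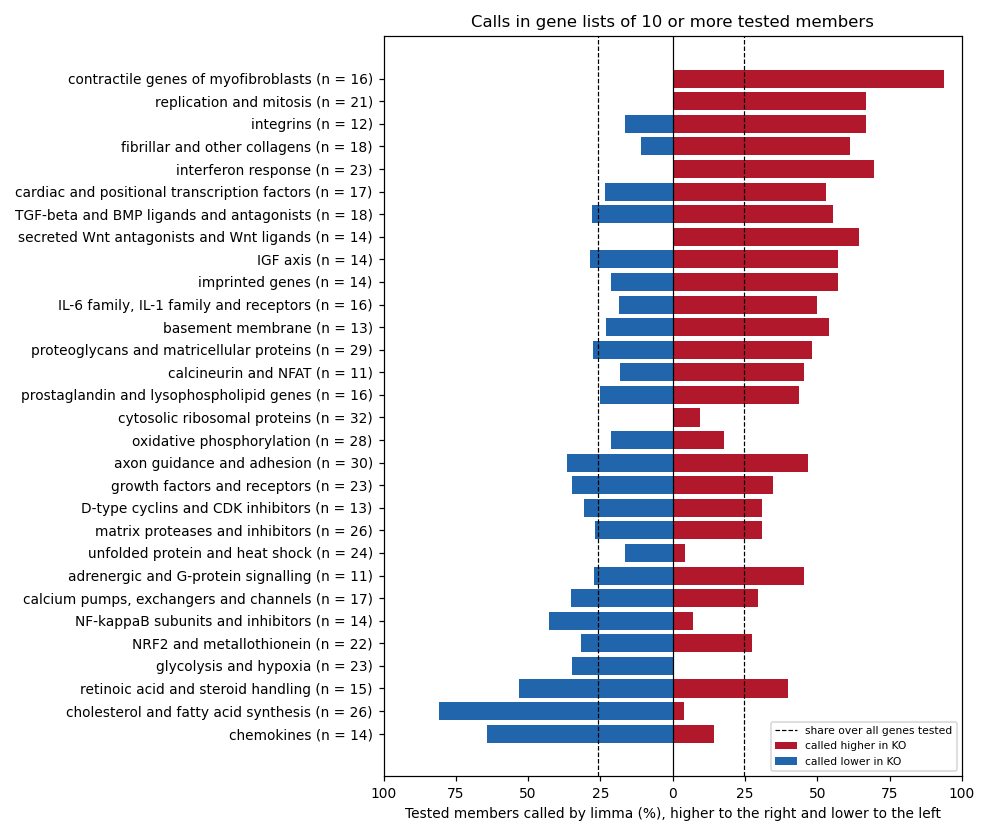
Share of tested members called by limma in each gene list with 10 or more of them, higher in KO to the right and lower to the left, ordered by the list's median log2 difference (KO minus WT); n is the number of tested members and the dashed lines are the shares over all genes tested, 24.6% and 25.7%. Contractile, interferon response, replication, Wnt and ribosomal protein genes have bars to the right and none to the left, and cholesterol synthesis and chemokine genes reach furthest left.

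Calcium handling, the system to which PMCA4 belongs, had 5 rises and 6 falls among 17 tested genes (median -0.13). Atp2b1, the gene of the related pump PMCA1, was lower, with 962 and 945 in KO and 1710.1 and 1765 in WT. Slc8a1, the sodium-calcium exchanger, had 130.0 and 109.6 in KO and 439.8 and 434 in WT, a log2 difference of -1.87 ± 0.090 (SE, n = 2 arrays per genotype, limma adjusted p = 0.000958). Both of these genes for calcium export were lower on both KO arrays than on both WT arrays. Atp2a2, the pump of the endoplasmic reticulum, had 4799.8 and 4902 in KO and 4465 and 4796 in WT and was not called. Of the channels that let calcium into the cytosol, Cacna1g, a T-type channel, was higher at 1.38, Cacna1c, the L-type channel, at 0.59 and Itpr3, an inositol trisphosphate receptor, at 1.17. Orai1 and Orai2, pores of store-operated entry, were lower at -0.38 and -0.72, of which Orai2 was not called with RMA (-0.15). Trpc1 was bright only in WT, at 65.0 and 60.5, and was under the filter of the test. Calcineurin, the calcium-dependent phosphatase, and NFAT, the factor it activates, gave 5 rises and 2 falls of 11, of which Nfatc2 and Nfat5 changed sign with the median over their probe sets, at -0.097 and 0.16. Rcan1, a feedback inhibitor that calcineurin induces, was lower at -0.34, and its paralogue Rcan2 was higher at 0.71. Of the adrenergic genes the α1-receptor genes Adra1a and Adra1b were dim on all 4 arrays. Ednra, an endothelin receptor, was bright only in KO at 113 and 137, against 11.7 and 3.09 in WT.

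Of 17 tested cardiac and positional transcription factors 9 were higher and 4 lower (median 0.47), and of 5 tested Hox genes 1 was higher and 2 were lower. Foxf1, a forkhead factor of mesenchyme, had 236 and 231 in KO and 53.0 and 47.1 in WT. Meis1 and Meis2, partners of Hox proteins, were lower at -1.23 and -1.40. Hoxa5 had 224 and 228 in KO and 1038 and 1054 in WT, and Gata6, a cardiac factor, was bright only in KO at 44.2 and 56.0. In each of these 5 genes both KO values lay on 1 side of both WT values, with no share over all genes to set beside this. In the handling of retinoic acid and steroids 6 of 15 tested genes were higher and 8 lower (median -0.40). Crabp1, a cellular binding protein, was higher at 1.84, Cyp26b1, which degrades retinoic acid, was bright only in KO at 226 and 237, and Hsd11b1, which activates glucocorticoids, was lower at -1.57.

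The genotype difference was of similar size with and without phenylephrine. Over the genes bright in both, the median absolute difference between genotypes was 0.278 on the log2 scale with phenylephrine and 0.276 without, while the median absolute effect of phenylephrine was 0.0773 in KO and 0.0802 in WT. At least 2-fold between genotypes were 740 genes with phenylephrine and 694 without, of which 582 in both, 158 with phenylephrine alone, 112 without it alone and none in opposite directions. At least 2-fold between treatments were 2 genes in KO and 1 in WT. Each condition has 1 array, so the gap between the 2 genotype differences has no error and was not tested. It had a median size of 0.113, and 9 genes reached 2-fold. Of the 10 genes read for it, the widest in each direction were Angpt4, an angiopoietin, with 120.0 and 267 in KO and 336 and 313 in WT, and Necab2, a neuronal calcium-binding protein, with 67.4 and 40.0 in KO and 34.5 and 47.6 in WT. In Angpt4 the untreated KO array was the low one, and in Necab2 it was the high one. None of these 10 genes was called by limma for genotype. The gap they were chosen for is the residual of that fit, so the lack of a call was largely built into the choice.

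**Figure D4:**
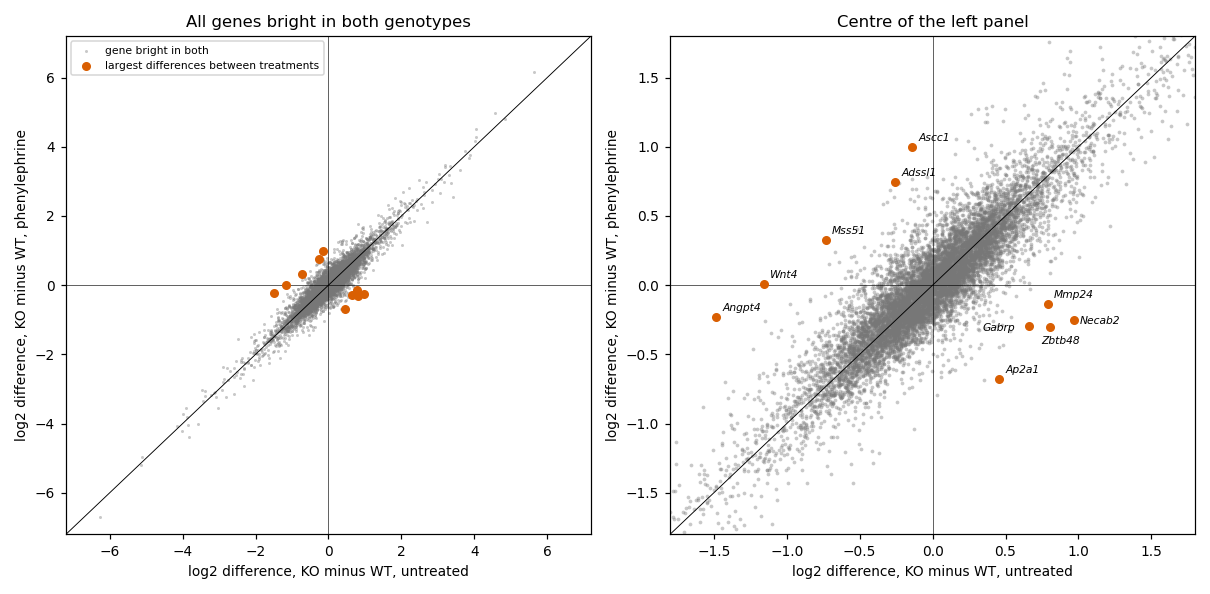
Log2 difference, KO minus WT, with phenylephrine (vertical) against untreated (horizontal) for the 10673 genes bright in both genotypes (left) and the centre of the same plot (right); orange points are the 10 named genes with the largest difference between treatments and the line marks equal values. Genes with wide differences lie along the line in both panels.

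The genotype differences were not spread evenly over the genome. For genes bright in both that could be placed, 10239 in all, the median log2 difference of a whole chromosome ran from -0.32 to 0.33 across the 19 autosomes, while the median effect of phenylephrine ran from 0.0150 to 0.0572 in KO and from 0.0200 to 0.0561 in WT. Chromosome 8 was highest at 0.33, with 58.0% of its 559 genes called higher and 5.01% lower. Chromosomes 19, 3, 14 and 15 followed at 0.27, 0.26, 0.24 and 0.24, and chromosome 12 at 0.15. Chromosome 11 was lowest at -0.32, with 7.48% of its 842 genes called higher and 55.7% lower, then chromosomes 9, 18 and 16 at -0.29, -0.26 and -0.22. The medians of the 2 treatments differed by at most 0.0341 on any autosome. In RMA values chromosome 8 had a median of 0.28 and chromosome 11 one of -0.30.

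Within these chromosomes the shift ran from end to end. In windows of 50 neighbouring genes, all 11 windows of chromosome 8 were above 0, from 0.26 to 0.38, and all 16 of chromosome 11 were below 0, from -0.42 to -0.22. The same held for every window of chromosomes 3, 12, 14, 15 and 19, above 0, and of chromosomes 9, 16 and 18, below 0. Other chromosomes were shifted in part: the first 5 windows of chromosome 5 lay between -0.51 and -0.25 and the other 7 between -0.063 and 0.090. On chromosome 2, 3 adjoining windows lay between -0.50 and -0.44, and on chromosome 10 the first 2 lay at 0.37. Chromosome 1 was below 0 over its first 6 windows and above 0 over its last 5. All 5 Y-linked genes read were higher in KO, Kdm5d at 510.4 and 522 in KO and 301 and 307 in WT among them.

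Grouped after these medians were seen, and so with no test, chromosomes 3, 8, 14, 15 and 19 had 49.3% of 2205 genes called higher and 6.80% lower. Chromosomes 9, 11, 16 and 18 had 8.72% of 2007 genes called higher and 51.0% lower, and the other 10 autosomes 20.2% and 21.6% of 5676. With the chromosome median subtracted from each gene on an autosome or the X chromosome, limma called 2160 genes higher and 2165 lower of 10900, and 3801 of these 4325 genes were among the 5503 called without the subtraction. Under it the median of 1 of the 34 lists changed sign, that of matrix proteases and inhibitors, from -0.027 to 0.095. Among the lists that kept their sign, the contractile genes had a median of 0.87, replication and mitosis 0.86, interferon response 0.42 and cholesterol synthesis -0.69. The cultures behind the 2 arrays of a genotype are not stated, and the genotype cannot be told apart from any other difference between the KO and WT cultures on these arrays.

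**Figure D5:**
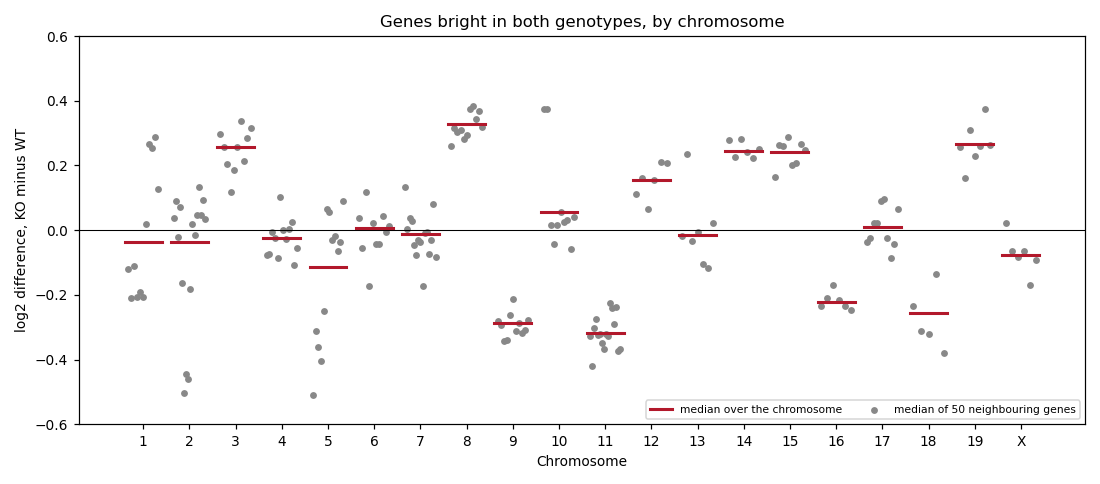
Median log2 difference (KO minus WT, mean of both treatments) of genes bright in both genotypes, by chromosome (red bar) and by windows of 50 neighbouring genes in chromosome order (grey points). Chromosomes 3, 8, 12, 14, 15 and 19 lie wholly above 0, chromosomes 9, 11, 16 and 18 wholly below, and chromosomes 1, 2, 5 and 10 are shifted over part of their length.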

How the data were processed

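Affymetrix arrays of 4 RNA samples, 1 for each genotype and treatment, were analysed. The authors deposited 2 tables of linear intensity for 45037 probe sets, 1 estimated with PUMA and 1 with RMA, and the submitters' notes also name MAS5. The sources used here do not name a genome build. The series value table held the PUMA intensities: 180148 cells were equal within a share of 0.0001. The PUMA and RMA tables also hold the authors' signed fold changes and probabilities of a positive log ratio, which were not used. Columns of unmapped samples numbered 0.

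Probe sets were named through RefSeq (GRCm38.p6): 31088 by current symbol, 394 by synonym and 3518 by accession, 2818 kept the file's name, 1394 named several genes and 5820 none. The probe set of highest mean PUMA intensity stood for its gene. Log2 intensities of the 11424 genes with a mean above 35.1 were fitted with limma 3.58.1 (R 4.3.3; lmFit and eBayes, genotype plus treatment), with Benjamini-Hochberg adjustment and a threshold of 0.05. P-values rest on the spread of the genotype difference between treatments in pooled RNA, shrunk by eBayes towards a value shared by all genes tested. The 2 arrays per genotype limit the precision. The fit was tested on simulated data.

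Named genes were the 12 in each direction bright in both genotypes, the 12 of each class bright in 1 genotype, up to 5 per list and 5 per direction of the gap between treatments, by size. The first 2 kinds also had to differ 2-fold in RMA, and clone names were left out. Other list members were named for their role with their values seen. Some list members that the rule names are not reported here. The comparison, the lists and the rules were chosen with earlier results of these data known. Alternatives were RMA, median centring, quantile normalization, the median over probe sets, other filters and thresholds, and each array left out.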

Additional observations from a re-analysis of the deposited data

Results flagged for a closer look

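For 9 genes read for the contrast between treatments, the difference between KO and WT had opposite signs in the phenylephrine-treated and the untreated pair. The log2 difference (KO minus WT) with phenylephrine, minus that without, was 1.17 for Wnt4, 1.14 for Ascc1, 1.06 for Mss51, 1.01 for Adssl1, -1.22 for Necab2, -1.13 for Ap2a1, -1.11 for Zbtb48, -0.95 for Gabrp and -0.93 for Mmp24. Each pair is 1 array per genotype, so the difference was not tested. The widest, Necab2, had differences of -0.25 with phenylephrine and 0.97 without, and 0.0039 and 0.41 with RMA values. In RMA values Wnt4, Ascc1, Necab2 and Ap2a1 had the same sign in both treatments.

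Of 5820 probe sets that carry no gene symbol, and so enter no comparison above, 1321 were bright in both genotypes. At least 2-fold apart in both treatments, with values under the array median raised to it, 21 were higher in KO and 75 were lower. No gene is named for them here, and groups of 1 array per condition allow no check for an array far from its group.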

How the results depend on the processing

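Of the limma calls, 2811 genes higher and 2935 lower in KO, the counts moved by over 1.5 times under 2 settings: with a gene read as the median of its probe sets they were 1559 and 1573, and with no filter on low intensities both were 0, with 5396 genes at an unadjusted p under 0.05. Leaving out each array in turn, which also dropped the treatment term, gave 2188 to 2625 higher and 2160 to 2771 lower. The genotype left with 1 array was then assumed to vary like the other. RMA gave 3198 and 3568, and 5503 of the 5746 genes called with PUMA were called with it. Subtracting chromosome medians, chosen after seeing the data, gave 2160 and 2165 of 10900 genes.

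The counts of genes at least 2-fold apart, 290 higher and 292 lower among genes bright in both and 130 and 150 among those bright only in KO and only in WT, were 92, 88, 55 and 63 with brightness set at the 75th percentile. At 1.5-fold the genes bright in both numbered 769 and 805. With RMA the classes of 1 genotype held 61 and 83. The cause of these shifts was not tested.

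With the median of all probe sets of a gene, 4 named genes reversed: Nfkbib at 0.068, Tap1 at -0.23, Nfatc2 at -0.097 and Nfat5 at 0.16. The medians of 8 of the 34 lists changed sign under a planned setting, replication and mitosis among them. The labels give no replicate numbers, so no block by number was fitted. Arrays are paired by treatment, which is a term of the model, and without that term 3087 genes were higher and 3197 lower. Each condition has 1 array, so no value holds an error between replicates of a condition, and dim probe sets carry only a bound.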
